A study of Mus musculus with 6 samples.

Results

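Galectins are lectins, proteins that bind beta-galactoside sugars on glycoproteins, and they were described here together with Lgals3bp, a secreted glycoprotein that binds galectin-3. The 5 genes Lgals1, Lgals3, Lgals8, Lgals9 and Lgals3bp were taken by name from a deposited table of 54532 genes, and all 5 were among the 12491 genes with enough counts to be tested. They were measured by bulk RNA sequencing in a macrophage-like mouse line, RAW264.7, which came from a tumour induced by Abelson leukaemia virus. The compared groups were 3 libraries labelled ERMAP shRNA, with the genotype tag ERMAP Knockdown and an shRNA (short hairpin RNA) carried by a lentivirus, and 3 control libraries with the genotype tag WT and no treatment tag. All were grown in DMEM with serum. The labels give the lentivirus protocol on the control samples too and describe no empty or non-targeting virus, so whether control cells met a virus is not settled by them. They also do not say whether the libraries of a group came from separate cultures, so a p-value here reflects spread among these libraries alone, perhaps technical in part.

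Galectins are made in the cytosol without a signal peptide and leave cells by an unconventional route, after which they cross-link glycans on cell surfaces. Galectin-1 (Lgals1) has a single sugar-binding domain and pairs with itself, galectin-3 (Lgals3) joins such a domain to a flexible tail that lets it form larger assemblies, and galectin-8 (Lgals8) and galectin-9 (Lgals9) carry a pair of linked domains. In macrophages, galectin-3 is abundant and often used as a marker, while inside cells galectin-3 and galectin-8 gather on the exposed glycans of broken endosomes and lysosomes. Galectin-9 is known as a ligand of TIM-3 (Havcr2) on T cells, and both Lgals9 and Lgals3bp are known from other work as interferon-inducible genes.

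The promoters of the 2 members that were higher in the libraries labelled ERMAP shRNA are shown. That of Lgals9 holds core letters of the interferon-stimulated response element (ISRE), and that of Lgals3bp only a variant picked after the data were seen. Sequences are from RefSeq on GRCm38.p6, 5′ to 3′ on the gene's strand, from 250 bases before to 50 after the annotated start; capitals mark matches, on either strand, to the ISRE core (GAAA, any 2 bases, then GAAA) or to a variant (AAA, any 2 bases, then GAAAC).
Lgals9, chr11:78984875-78985174, minus strand: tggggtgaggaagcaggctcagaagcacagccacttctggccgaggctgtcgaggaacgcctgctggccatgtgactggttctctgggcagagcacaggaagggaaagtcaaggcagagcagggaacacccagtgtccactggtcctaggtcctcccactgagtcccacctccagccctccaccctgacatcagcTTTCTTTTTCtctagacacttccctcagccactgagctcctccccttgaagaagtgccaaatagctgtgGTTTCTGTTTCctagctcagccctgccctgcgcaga
Lgals3bp, chr11:118401910-118402209, minus strand: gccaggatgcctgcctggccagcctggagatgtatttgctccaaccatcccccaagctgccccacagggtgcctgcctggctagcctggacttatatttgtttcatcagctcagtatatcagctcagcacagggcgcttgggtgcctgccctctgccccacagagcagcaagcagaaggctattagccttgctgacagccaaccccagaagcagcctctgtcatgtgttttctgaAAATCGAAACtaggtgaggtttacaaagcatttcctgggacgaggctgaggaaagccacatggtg
The Lgals9 window held 2 matches to the ISRE core, both on the opposite strand, at bases 196 to 205 and 266 to 275 of the 300. A match to the variant, a form picked after the data were seen, overlapped the second of these, shifted by 1 base. Lgals3bp had no match to the core in its window and 1 match to the variant, at bases 236 to 245. Of 32851 promoter windows of the same length, 3.44% held the core and 2.24% held the variant on either strand. Windows were found for 4 of the 5 members, and those of Lgals3 and Lgals8 held neither form. TTCNNNGAA, the letters of the gamma-activated site, occurred in 8.30% of all windows and in none of the 4. GAGGAA, a core bound by the myeloid factor PU.1, occurred at 2 places in the Lgals9 window and 1 in the Lgals3bp window, against 28.3% of all windows with at least 1 match. The RefSeq start used lies 22 bases inside the gene as the deposited table draws it for Lgals9 and 133 bases inside for Lgals3bp, against 6109 bases for Lgals3 and 3206 for Lgals8. A match describes letters and shows no binding.

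One library, control replicate 1, was unlike the rest. It had 3.69% of its counts on mitochondrial transcripts, against 1.71% to 2.18% in the other 5 libraries, and across tested genes its deviation from the other controls followed transcript GC content (Spearman rho = -0.73, a description over genes, which are not independent). The same measure, each library against the others of its group, gave 0.65 and 0.56 for control replicates 2 and 3, which control replicate 1 enters, and -0.41 for ERMAP shRNA replicate 2. Summed counts ran from 13447021 to 16602734 per library. The gene named on the label, Ermap, was not lower: it had 10, 21 and 14 counts in libraries labelled ERMAP shRNA, against 12, 12 and 3 in control libraries (log2 fold change 0.81, SE 0.52, edgeR adjusted p = 0.929). That value moved to 0.41 when control replicate 3 was left out and to 0.105 on log2(FPKM + 1), stayed above 0 and was not called in any alternative run, so every direction below is that of the label only. The 10 macrophage markers summed to 7555 to 7704 CPM (counts scaled to library size) in libraries labelled ERMAP shRNA and 7350 to 7627 CPM in control libraries. Most of this sum came from Lyz2 (3344 CPM in libraries labelled ERMAP shRNA and 3696 CPM in control libraries) and Csf1r (2200 and 2002 CPM). The sum thus says little about the rest. Csf1r, Cd68 and Lyz2 were among the markers present, Mertk had no count, and Fcgr1, an Fc receptor, was called higher (89.0 CPM in libraries labelled ERMAP shRNA and 28.6 CPM in control libraries, edgeR adjusted p = 0.000116). Markers of T cells, neutrophils, fibroblasts, epithelial and erythroid cells each summed to at most 0.399 CPM in any library, with no count for 5 of 6, 4 of 5, 4 of 5, 3 of 4 and 3 of 5 of their genes. The 5 B cell markers summed to 52.5 to 64.1 CPM in libraries labelled ERMAP shRNA and 36.0 to 47.0 CPM in control libraries, nearly all of it Blnk, with Ms4a1 at 0. The part of these markers and of RNA makeup in the results below was not tested, and in bulk RNA fewer cells making a transcript and less of it per cell cannot be told apart.

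Lgals9 and Lgals3bp were higher in the libraries labelled ERMAP shRNA, about 29-fold and 4.6-fold, while Lgals1, Lgals3 and Lgals8 did not pass the test. Thus 2 of the 5 members were called higher and 0 lower (edgeR quasi-likelihood test, Benjamini-Hochberg adjusted p under 0.05 over all tested genes), where 1.01% of all 12491 tested genes were called higher and 0.136% lower. The members were chosen with such results already known. Levels are given as CPM scaled by TMM factors, as mean ± SD over 3 libraries, and fold changes as libraries labelled ERMAP shRNA over control.

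**Figure D1:**
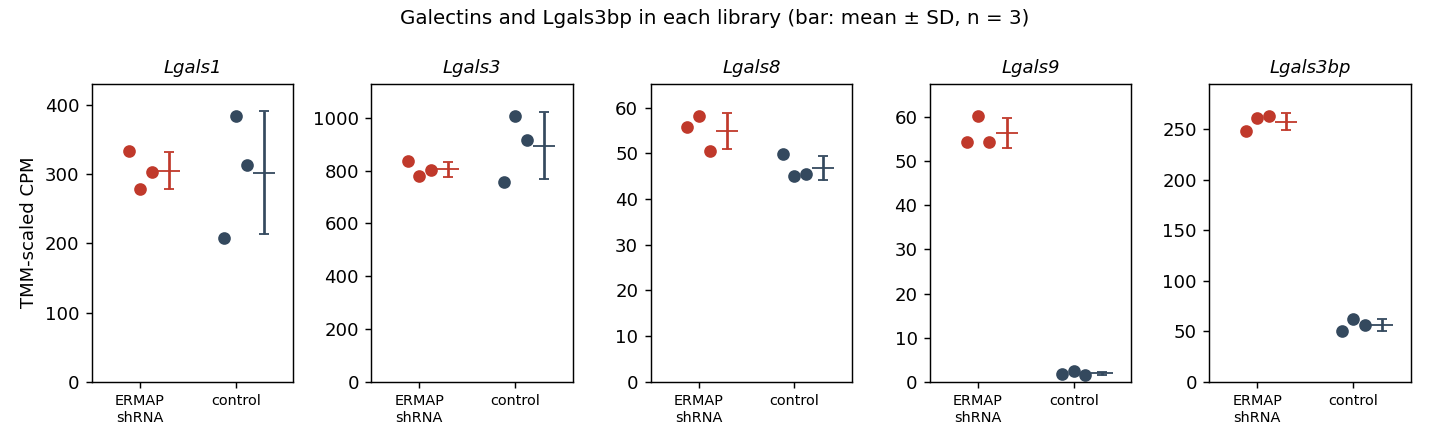
TMM-scaled CPM of each member (vertical axes, each from 0) in the 3 libraries labelled ERMAP shRNA (left, red) and the 3 control libraries (right, dark); points are libraries and bars the mean ± SD. Lgals9 sits at 54.4 to 60.4 CPM in libraries labelled ERMAP shRNA and at 1.58 to 2.35 CPM in control libraries, while the groups overlap for Lgals1 and Lgals3.

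Lgals9 (ENSMUSG00000001123) is on chromosome 11 of mm10 (78962974 to 78984946, minus strand), and its coding transcripts have 10 to 11 exons in GENCODE vM21. It had 728, 907 and 818 counts in libraries labelled ERMAP shRNA, against 26, 39 and 24 in control libraries. All labelled libraries stood far above all controls, and the lowest of them still held 54.4 CPM. Groups without overlap were seen for 14.2% of all tested genes. Means were 56.4 ± 3.44 CPM in libraries labelled ERMAP shRNA and 1.91 ± 0.394 CPM in control libraries (SD, n = 3 each), a log2 fold change of 4.87 (SE 0.17), or 29.3-fold with a 95% interval of 22.4 to 38.3 (edgeR adjusted p = 5.39e-06). It ranked 12 by log2 fold change among the 126 genes called higher. Leaving out any single library gave log2 values from 4.75 to 5.05, with adjusted p of at most 0.000144.

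Lgals3bp (ENSMUSG00000033880), whose product carries a scavenger receptor cysteine-rich (SRCR) domain, is on the same chromosome (118392751 to 118402092, minus strand). Its counts were 3318, 3930 and 3961 in libraries labelled ERMAP shRNA, and 722, 1036 and 858 in control libraries. The groups did not overlap, which holds for 14.2% of all tested genes. It averaged 257.7 ± 8.51 CPM in libraries labelled ERMAP shRNA and 56.3 ± 6.24 CPM in control libraries (SD, n = 3 each), a log2 fold change of 2.19 (SE 0.11), or 4.57-fold with a 95% interval of 3.84 to 5.45 (edgeR adjusted p = 3.60e-05). It ranked 55 among the 126 genes called higher, and stayed at log2 2.11 to 2.27 whichever library was left out, with adjusted p of at most 0.00106.

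**Figure D2:**
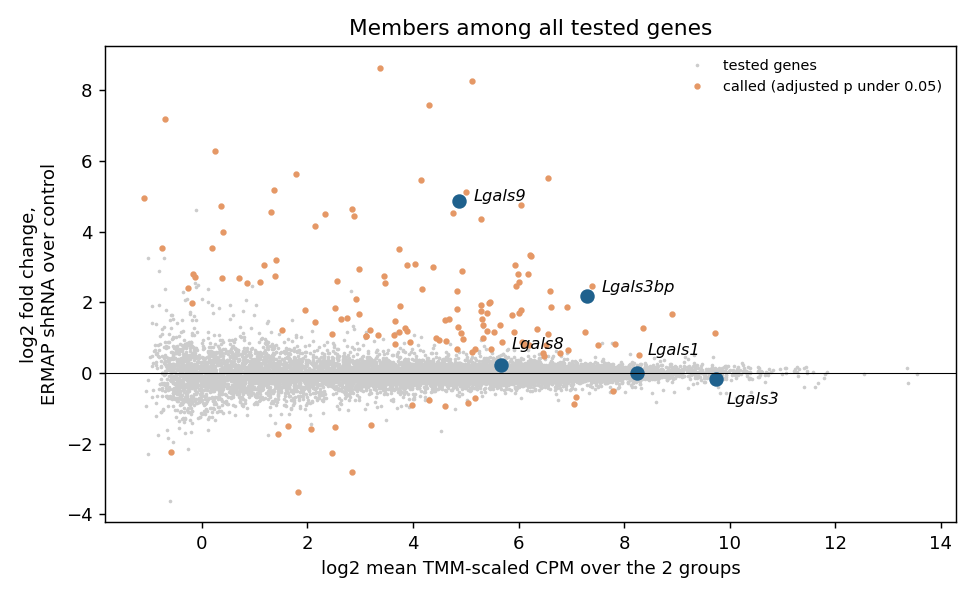
Log2 fold change of the libraries labelled ERMAP shRNA over control (vertical) against log2 mean CPM (horizontal) for 12491 tested genes (grey), the 143 called genes (orange) and the 5 members (blue). Lgals9 at 4.87 and Lgals3bp at 2.19 stand with called genes, and Lgals1, Lgals3 and Lgals8 lie near 0.

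Galectin-3 had the highest transcript level of the 5 members. Lgals3 (ENSMUSG00000050335, chromosome 14, 47367751 to 47386160, plus strand) had 834, 778 and 803 CPM in libraries labelled ERMAP shRNA, against 758, 1008 and 917 CPM in control libraries. The labelled libraries fell inside the control range, whose lowest value was control replicate 1. Mean levels were 805 ± 28.2 CPM in libraries labelled ERMAP shRNA and 894 ± 127 CPM in control libraries (SD, n = 3 each), and the log2 fold change of -0.15 (SE 0.12, 95% interval -0.42 to 0.12) did not pass the test (edgeR adjusted p = 0.937). Without control replicate 1, Lgals3 was called lower in the libraries labelled ERMAP shRNA, at a log2 fold change of -0.26 (edgeR adjusted p = 0.0122). That run called 342 genes higher and 280 lower of 12793 tested, against 126 and 17 in the reported analysis. Lgals3 changed its call with control replicate 1 alone among the 6 libraries left out in turn.

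Lgals1 (ENSMUSG00000068220, chromosome 15, 78926725 to 78930465, plus strand), which encodes galectin-1, had 333, 279 and 303 CPM in libraries labelled ERMAP shRNA. In control libraries it had 207, 384 and 313 CPM, so that the controls spread on both sides of the labelled libraries and control replicate 1 was again the lowest. Its log2 fold change of 0.01 (SE 0.21) had a 95% interval of -0.46 to 0.49 (edgeR adjusted p = 0.995). Its sign turned without control replicate 1, to -0.20 (edgeR adjusted p = 0.259), so changes of the size in that interval could not be told from none. Both Lgals1 pseudogenes in the table, Lgals1-ps1 and Lgals1-ps2, had 0 counts in every library.

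Lgals8 (ENSMUSG00000057554, chromosome 13, 12439415 to 12464944, minus strand) had 55.8, 58.3 and 50.5 CPM in libraries labelled ERMAP shRNA, against 49.8, 45.0 and 45.5 CPM in control libraries. The ranges were adjacent without overlap, a pattern shared by 14.2% of tested genes. Averages were 54.9 ± 3.98 CPM in libraries labelled ERMAP shRNA and 46.7 ± 2.64 CPM in control libraries (SD, n = 3 each), and the log2 fold change of 0.23 (SE 0.10, 95% interval -0.01 to 0.47) did not pass the test (edgeR adjusted p = 0.767). The gene overlaps Heatr1 on the opposite strand, with 166 CPM in libraries labelled ERMAP shRNA and 150 CPM in control libraries. Strand use in counting is not given in the sources used here, so reads of the shared stretch cannot be told apart.

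Per length, the order of the members changed between groups. In deposited FPKM, a level per kilobase of gene, libraries labelled ERMAP shRNA had means of 431 for Lgals3, 336 for Lgals1, 90.0 for Lgals3bp, 26.2 for Lgals9 and 14.8 for Lgals8. Control libraries had 477 for Lgals3, 331 for Lgals1, 19.6 for Lgals3bp, 12.6 for Lgals8 and 0.886 for Lgals9. Lgals9 thus stood above Lgals8 in every library labelled ERMAP shRNA (25.2 to 28.1 FPKM against 13.6 to 15.7) and below it in every control library (0.737 to 1.09 FPKM against 12.1 to 13.3). Between Lgals3 and Lgals1 the ranges were apart in libraries labelled ERMAP shRNA (417 to 445 and 307 to 365 FPKM) but met in control libraries (402 to 538 and 227 to 422 FPKM). Within every single library Lgals3 stood above Lgals1. In control libraries the pairs were 402 and 227, 538 and 422, and 490 and 345 FPKM. Among 22046 protein-coding genes ranked by mean FPKM, Lgals9 was at 1988 in libraries labelled ERMAP shRNA and 9708 in control libraries, Lgals3bp at 473 and 2660, Lgals8 at 3507 and 4011, Lgals1 at 110 and 108, and Lgals3 at 77 and 66.

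**Figure D3:**
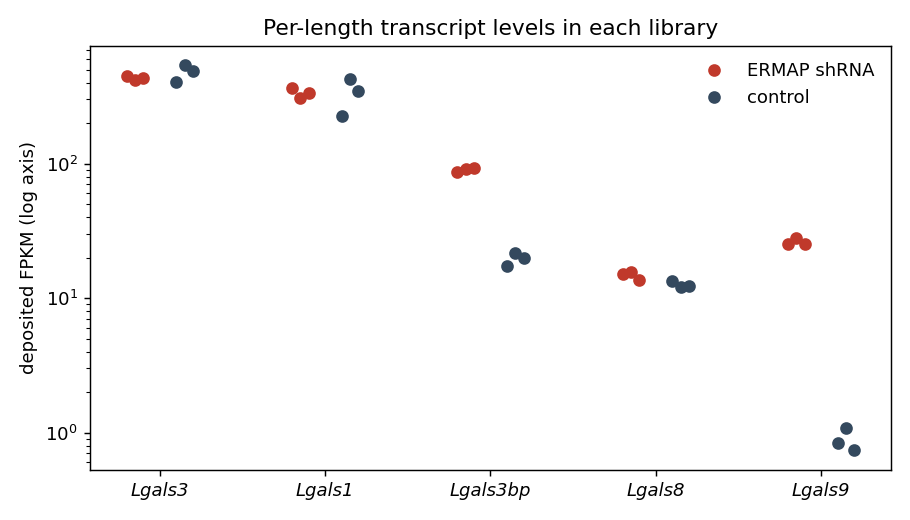
Deposited FPKM (log axis) of the 5 members in each library, with libraries labelled ERMAP shRNA in red at the left of each pair and control libraries in dark at the right. Lgals9 lies above Lgals8 in the libraries labelled ERMAP shRNA and below it in the control libraries, while Lgals3 and Lgals1 stay at the top in both.

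Summed over the 4 galectins, the transcript pool stood at 807 ± 41.3 FPKM in libraries labelled ERMAP shRNA and 822 ± 167 FPKM in control libraries (SD, n = 3 each, exact permutation test, two-sided p = 1), and the control range covered every labelled library. Lgals9 made up 2.97%, 3.66% and 3.16% of that pool in libraries labelled ERMAP shRNA, against 0.129%, 0.112% and 0.0869% in control libraries. Every labelled library held a larger Lgals9 share than every control. The mean difference was 3.15 percentage points, with an exact two-sided permutation p = 0.1, the smallest that 3 against 3 libraries allow, and 0.2 after adjustment over the 4 shares. Lgals3 held 53.4% ± 0.992 of the pool in libraries labelled ERMAP shRNA and 58.6% ± 3.69 in control libraries (SD, n = 3 each, exact permutation p = 0.1, adjusted 0.2), again without overlap. The Lgals3 difference of -5.16 points was -3.16 without control replicate 1. Lgals1 held 41.5% ± 1.47 in libraries labelled ERMAP shRNA and 39.7% ± 4.14 in control libraries (exact permutation p = 0.7), a difference of 1.76 points that turned to -0.496 without control replicate 1 and was 3.56 without control replicate 2. Lgals8 stayed a small part, at 1.84% ± 0.187 in libraries labelled ERMAP shRNA and 1.59% ± 0.432 in control libraries (SD, n = 3 each, exact permutation p = 0.5), and its difference of 0.250 points was 0.493 without control replicate 1 and 0.0784 without control replicate 2.

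The gap between Lgals9 and the other galectins was compared within each library on the log2 CPM scale. The log2 difference from Lgals8 averaged 0.04 ± 0.07 in libraries labelled ERMAP shRNA and -4.54 ± 0.31 in control libraries (SD, n = 3 each). From Lgals1 it was -2.43 ± 0.21 in libraries labelled ERMAP shRNA and -7.18 ± 0.39 in control libraries, and from Lgals3 it was -3.83 ± 0.13 in libraries labelled ERMAP shRNA and -8.78 ± 0.24 in control libraries. Lgals9 therefore moved by 4.58, 4.75 and 4.95 log2 units more than Lgals8, Lgals1 and Lgals3, and in each of the 3 pairs the groups were fully apart, with an exact two-sided permutation p = 0.1 before and after adjustment over the 3 pairs, again the smallest possible.

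Most other members of the family had few or no counts, Lgalsl excepted. Of 12 family genes listed, Lgals3bp included, 11 were in the table and 6 were tested. Of these 2 were called higher and 0 lower, against 1.01% and 0.136% of all tested genes. The 2 were Lgals9 and Lgals3bp, already given above, and Lgalsl was the only tested gene outside the members. The median log2 fold change was 0.12 against -0.01 over all tested genes. Lgalsl, a galectin-like protein gene, had 15.2 ± 1.91 CPM in libraries labelled ERMAP shRNA and 15.9 ± 1.76 CPM in control libraries (SD, n = 3 each, edgeR adjusted p = 0.954). Its log2 fold change of -0.07 turned to 0.01 without control replicate 1 and to 0.03 with offsets for GC content. Lgals4 had 4, 8 and 11 counts in libraries labelled ERMAP shRNA and 3, 5 and 8 in control libraries, and Lgals2 had 3, 4 and 2 counts in libraries labelled ERMAP shRNA and 3, 5 and 7 in control libraries. Neither passed the filter on low counts. Lgals7, Lgals12 and Grifin had 0 counts in every library, which in the shallowest library allows up to 0.223 CPM (3 counts), for counting error only.

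Genes for galectin counter-receptors, the glycoproteins that galectins bind, were mostly not called. Of 28 listed, 26 were tested, 1 was called higher and 0 lower, where all tested genes gave 1.01% higher and 0.136% lower. The median log2 fold change of the list was -0.08. Cd40, a co-stimulatory receptor, had 4.93, 5.59 and 3.13 CPM in libraries labelled ERMAP shRNA, against 0.692, 0.723 and 0.594 CPM in control libraries (log2 fold change 2.75, SE 0.32, edgeR adjusted p = 0.00503). Havcr2, which encodes TIM-3, had 26.7, 22.0 and 24.7 CPM in libraries labelled ERMAP shRNA, against 36.0, 28.1 and 31.6 CPM in control libraries, and did not pass (log2 fold change -0.38, edgeR adjusted p = 0.522). Cd274, which encodes PD-L1, had 3.14, 2.33 and 2.66 CPM in libraries labelled ERMAP shRNA and 0.830, 1.14 and 1.32 CPM in control libraries (log2 fold change 1.29, edgeR adjusted p = 0.119). Without control replicate 1, 3 of the list were called higher (Cd40, Cd33 and Tfrc) and 3 lower (Vsir, Lrp1 and Trem2). They were among 342 genes called higher and 280 lower of 12793 tested in that run.

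Enzymes and transporters that build galectin-binding glycans, chiefly but not only N-glycans (branching by the Mgat enzymes, galactose addition, sialic acid capping), were not called. Of 26 listed, 22 were tested and edgeR called 0, against 1.01% higher and 0.136% lower of all tested genes. DESeq2 also called 0, while an unadjusted p under 0.05 was reached by 1 (St3gal1, lower). The median log2 fold change was 0.08 and values ran from -0.40 (St3gal1, a sialyltransferase) to 0.49 (B3gnt2, which extends poly-lactosamine chains, at 0.30 without control replicate 1). Man2a2, a Golgi mannosidase and the most abundant of the list in CPM, had 197 ± 10.5 CPM in libraries labelled ERMAP shRNA and 167 ± 31.6 CPM in control libraries (SD, n = 3 each, edgeR adjusted p = 0.916). Without control replicate 1, St3gal6 was called higher and St3gal1 lower, among 342 higher and 280 lower of 12793 tested genes.

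Genes of the response to damaged lysosomes, in which galectin-3 and galectin-8 mark the broken membrane for autophagy and repair proteins, held a single called gene. Of 33 listed, 29 were tested, 1 was called higher and 0 lower, with a median log2 fold change of -0.04. The shares over all tested genes were 1.01% higher and 0.136% lower. Irgm1, an immunity-related GTPase, had 56.9, 66.0 and 64.0 CPM in libraries labelled ERMAP shRNA, against 15.4, 16.1 and 17.2 CPM in control libraries. Its log2 fold change was 1.94 (SE 0.11, edgeR adjusted p = 7.66e-05). The groups did not overlap for Irgm1, as for 14.2% of all tested genes. Trim16, a partner of galectin-3, had a log2 fold change of -0.17 (edgeR adjusted p = 0.938), or -0.31 without control replicate 1, and Calcoco2, whose human product NDP52 binds galectin-8, had 0 counts. Without control replicate 1, Tfeb was called lower (log2 fold change -0.36, edgeR adjusted p = 0.0193), among 280 of 12793 tested genes.

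A list of 15 genes was drawn around the SRCR domain, with Lgals3bp itself and the Lox family, not all of which carry the domain. Of the 15, 4 were tested, and Lgals3bp was the only one called, against 1.01% higher of all tested genes. Msr1, a macrophage scavenger receptor, had 99.5 ± 6.67 CPM in libraries labelled ERMAP shRNA and 95.7 ± 31.0 CPM in control libraries (SD, n = 3 each, edgeR adjusted p = 0.967). It was among 342 of 12793 tested genes called higher without control replicate 1 (log2 fold change 0.35, edgeR adjusted p = 0.00778). Ssc4d and Loxl3 had log2 fold changes of -0.41 and -0.27 (edgeR adjusted p of 0.893 and 0.937).

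**Figure D4:**
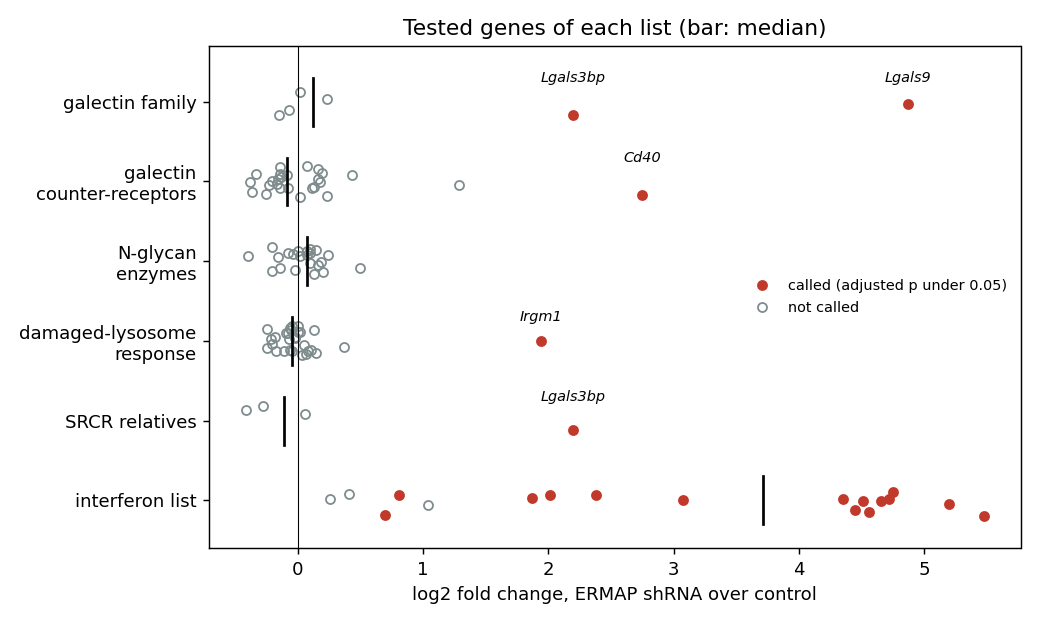
Log2 fold change of libraries labelled ERMAP shRNA over control (horizontal) for each tested gene of 6 lists; filled red points are called, open points are not, and the bar is the list's median. Cd40, Irgm1 and Lgals3bp are the single called genes of lists with medians near 0, Lgals9 and Lgals3bp are called in the galectin family, and 15 of 18 genes of the interferon list are called.

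A list of 18 interferon-linked genes, drawn up with results of these data known and so no independent support, gave the scale. Of the 18, 15 were called higher and 0 lower, against 1.01% and 0.136% of all tested genes. Their median log2 fold change was 3.71, and leaving out 1 library gave 12 to 16 higher. The 8 with the greatest fold change were Cmpk2 (5.47), Rsad2 (5.20), Irf7 (4.75), Ifit3 (4.72), Oasl2 (4.65), Ifit1 (4.56), Mx2 (4.51) and Isg15 (4.45), all log2 values, and without ERMAP shRNA replicate 2 Ifit1 was no longer called (edgeR adjusted p = 0.0555). Without control replicate 1 their values were 5.57 for Cmpk2, 5.60 for Mx2, 5.54 for Ifit1, 5.42 for Oasl2, 4.67 for Rsad2, 4.42 for Irf7, 4.21 for Ifit3 and 3.99 for Isg15. Usp18 at 4.16 then stood above Isg15. Other libraries moved these values too, with Rsad2 at 6.05 without control replicate 2 and Ifit3 at 5.11 without control replicate 3. Control means of Rsad2, Ifit1 and Ifit3 were only 0.12, 0.20 and 0.08 CPM, so the order is not settled. Stat2 and Ifit2 were called in the reported analysis but not with the replicate block (edgeR adjusted p of 0.179 and 0.206). On the same scale Lgals9 had 4.87, near Irf7, a transcription factor of interferon induction, and without control replicate 1 it had 4.82, below Mx2, Ifit1, Oasl2 and Cmpk2 and above Rsad2, which encodes the antiviral protein viperin. Lgals3bp had 2.19, while Irf9, a subunit of the interferon-activated factor ISGF3, had 2.01 and Ifih1, an RNA sensor, had 2.38. Irf1 and Irf8 did not pass, at 0.41 and 0.26 (edgeR adjusted p of 0.53 and 0.825), and Irf8 was at 0.14 without control replicate 1.

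The genes whose profiles over the 6 libraries were closest to Lgals9 were Rtp4, Trim30a, Usp18, Cmpk2 and Irf7, out of 9383 protein-coding genes with a mean of at least 5 CPM. Closeness was the root-mean-square difference between mean-centred log2 CPM profiles, 0.17 for Rtp4, 0.26 for Trim30a, 0.39 for Usp18, 0.39 for Cmpk2 and 0.49 for Irf7. Closest to Lgals3bp were Oas1g (0.11), Mov10 (0.13), Oas3 (0.14), Irf9 (0.15) and Ifi27l2a (0.16). Rtp4, a receptor transport protein gene, had 62.0 CPM in libraries labelled ERMAP shRNA and 1.77 CPM in control libraries, and Oas3, an oligoadenylate synthetase, had 283 CPM in libraries labelled ERMAP shRNA and 51.5 CPM in control libraries. These profiles share libraries and differ chiefly between the groups, so likeness here is mostly likeness in fold change. Trim30a and Oas1g have near relatives that can share their reads and are uncertain singly.

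**Figure D5:**
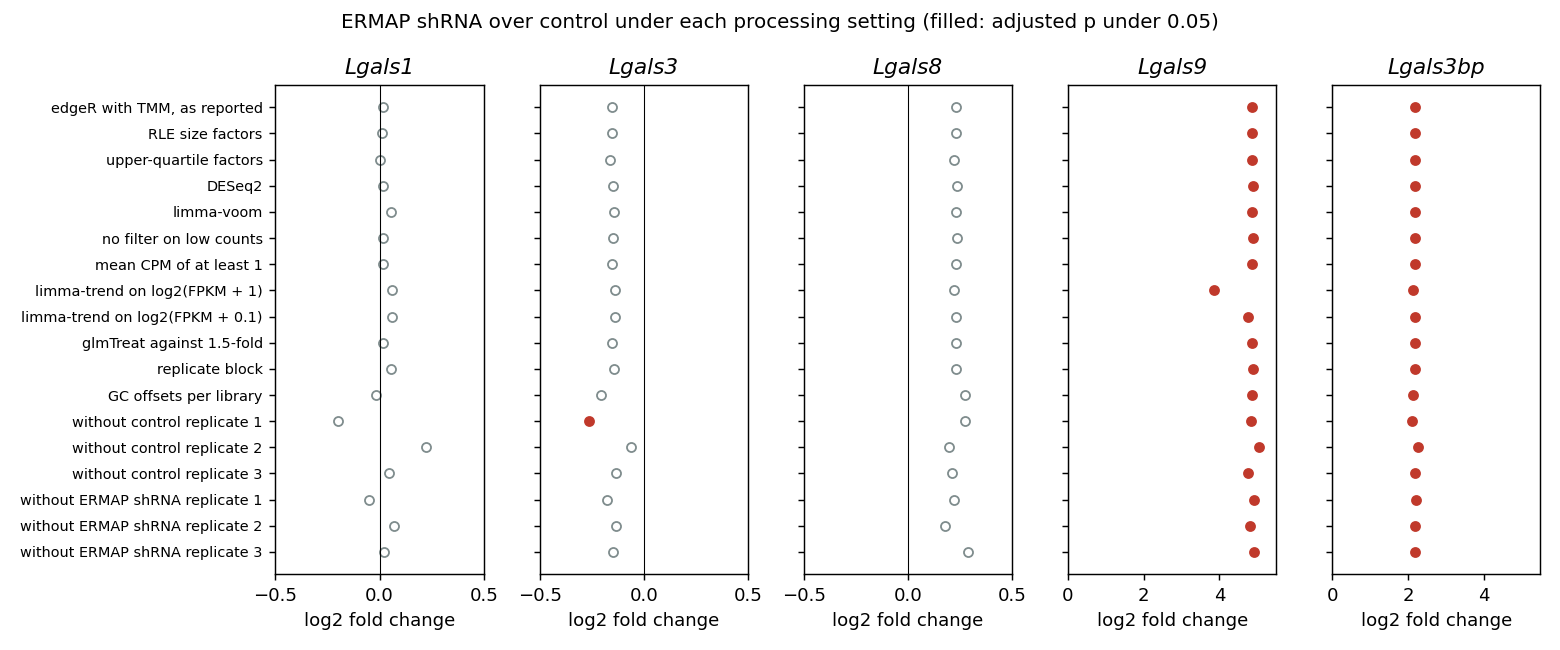
Log2 fold change of the libraries labelled ERMAP shRNA over control (horizontal; the axes of Lgals9 and Lgals3bp span a wider range than those of Lgals1, Lgals3 and Lgals8) under the reported analysis and 17 alternatives (rows); filled points pass an adjusted p under 0.05. Lgals9 and Lgals3bp are filled in every row, and the only filled point of the other 3 is Lgals3 without control replicate 1.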

How the data were processed

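Whole-number read counts per gene and FPKM values per library were deposited by the authors for 6 libraries, with mean FPKM per group. The submitters' processing notes name HISAT2 and the build mm10. Which counting program, strand setting, annotation release and versions were used is not given in the sources used here. Per the labels' protocols, the library kit was NEBNext Ultra RNA. Column names show the group and a number but could not be tied to single samples. Counts were tested with edgeR 4.0.16 (limma 3.58.1, R 4.3.3; glmQLFit, robust), TMM factors and filterByExpr at a minimum count of 10. SE and 95% intervals come from that fit. FPKM equals count over length and a constant per library, and served for levels between genes. The edgeR test was tested on simulated data. Alternatives were DESeq2 1.42.0, limma-voom, limma-trend on log2 FPKM with 1 or 0.1 added, other factors and filters, a 1.5-fold threshold, a replicate block and each library left out; GC offsets joined later, once values were known. GC content was taken from GENCODE vM21 transcripts, with values for 99.9% of tested genes. The members and lists were chosen with earlier results of these data known. Named genes are the members, Ermap, detected family genes, called list members (or the most abundant one) and the 5 closest profiles; all others were picked after their values were seen. No protein sequences were used here.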

Additional observations from a re-analysis of the deposited data

How the results depend on the processing

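Lgals9 and Lgals3bp kept their call and direction in all 17 alternatives, with log2 fold changes of 3.86 to 5.05 and 2.11 to 2.27, and Lgals8 stayed uncalled at 0.18 to 0.29. The lowest Lgals9 value is that on log2(FPKM + 1), where the added 1 exceeds its control mean. Leaving out each library gave Lgals1 -0.20 to 0.22 (reversed without control replicate 1, and at -0.05 without ERMAP shRNA replicate 1) and Lgals3 -0.26 to -0.0605 (called lower without control replicate 1). With GC offsets Lgals1 was at -0.0191 and Lgalsl at 0.0291, and leaving out libraries gave Lgalsl -0.19 to 0.0105. The Lgals1 share of the pool ran from -0.496 to 3.56 percentage points, against 1.76, that of Lgals8 from 0.0784 to 0.493 and that of Lgals3 from -6.80 to -3.16. Shares of CPM in place of FPKM gave 0.639 points for Lgals8 and 4.48 for Lgals9, since CPM is not per length. Against 126 genes higher and 17 lower, glmTreat against 1.5-fold gave 80 and 4, the replicate block 81 and 3, GC offsets 271 and 144, and leaving out 1 library 73 to 342 and 3 to 280 (342 and 280 without control replicate 1). DESeq2 gave 58 lower and no filter on low counts 32. In the lists, leaving out 1 library gave 1 to 3 higher and 0 to 3 lower of the counter-receptors, 0 to 1 in each direction of the N-glycan genes, 0 to 1 lower of the damaged-lysosome genes and of the galectin family, 1 to 2 higher of the SRCR genes, and 12 to 16 higher of the interferon list, with the upper value in each case without control replicate 1. Apart from the 1.5-fold threshold, which calls fewer genes by construction, the cause was not tested. Same-numbered libraries did not deviate together (correlations -0.13, -0.28 and 0.18, against -0.25 to 0.34 for unlike numbers). The numbers thus gave no sign of pairing, which 3 libraries per group cannot exclude. Under the block Lgals9 had 4.88 and Lgals3bp 2.20, both called. Of 23 other called genes, those of the lists and the closest profiles, 20 kept their call throughout and 0 reversed; Ifit1 lost it in 1 alternative, and Ifit2 and Stat2 lost it with the 1.5-fold threshold, the block and most left-out libraries. Counts of 24 to 39 limit the precision of Lgals9 in control libraries.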

Other observations

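Nos2, which encodes the inducible nitric oxide synthase of activated macrophages, ends 2720 bases from Lgals9 on chromosome 11. It had 9, 11 and 8 counts in libraries labelled ERMAP shRNA and 0 in every control library. With the control libraries together set at the 3 counts that 0 allows, for counting error only, it was 9.89-fold higher. That value takes the counts of the labelled libraries as exact, so it is no lower bound. It did not pass the filter on low counts, while edgeR with no such filter gave adjusted p = 0.0161 and DESeq2 adjusted p = 0.00827. The tested neighbours of the 2 called members, looked up after the data were seen, were not called. Of all tested genes, only 1.01% were called higher and 0.136% lower. Within 200 kb of Lgals9 lay 5 genes, Nos2 included, of which 2 were tested. These were Lyrm9 and Ksr1, with log2 fold changes of -0.26 and -0.27 (edgeR adjusted p of 0.852 and 0.949), and Ksr1 had only 55 counts in all. Within 200 kb of Lgals3bp lay 11 genes, of which 4 were tested. These genes, Cyth1, Usp36, Cant1 and Engase, had log2 fold changes from -0.18 to 0.19, and edgeR called 0, with 0 at an unadjusted p under 0.05.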
